A study of Mus musculus with 7 samples.

Results

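A set of 10 genes of iron handling and the acute phase response were read in mouse hearts: the iron transporters Tfrc, Slc40a1 and Slc11a1, the ferritin subunits Fth1 and Ftl1, the iron hormone gene Hamp, and the secreted iron, heme or siderophore binding proteins Hp, Lcn2, Cp and Ltf. They were found by their symbols, and all 10 were among the 23420 gene rows of the table. The samples were 7 bulk libraries of total RNA from ventricle, taken from animals 3 to 6 weeks old that had received no treatment. The 4 control animals were Ctla4+/+;Pdcd1-/- and the 3 ICI-myocarditis animals were Ctla4+/-;Pdcd1-/-, so every animal lacked Pdcd1 by its label and the groups differed by 1 copy of Ctla4. ICI stands for immune checkpoint inhibitor, and the disease was modelled by genotype, without an inhibitor being given. The question was how transcripts differ between the ICI-myocarditis and the control hearts.

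Cells take up iron bound to transferrin through the transferrin receptor, store it in ferritin cages built of heavy and light subunits, and release it through ferroportin, the product of Slc40a1 and the known cellular exporter. Hepcidin, a liver hormone encoded by Hamp, makes ferroportin degrade, and macrophages that clear red blood cells recycle most of the body's iron. In inflammation, iron is moved out of the reach of microbes: the acute phase response raises iron and heme binding proteins in blood, and phagocytes pump iron out of their phagosomes with NRAMP1, the product of Slc11a1. When iron is scarce, iron regulatory proteins bind iron-responsive elements, short hairpins in messenger RNA. At the 5′ end of a ferritin or ferroportin message such binding blocks translation, and at the 3′ end of the Tfrc message it protects the RNA from decay.

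These hairpins are shown because they set apart the 4 members whose messages carry them. A search of the untranslated regions of GENCODE release M21 on GRCm38 asked for an unpaired C, 5 paired bases, a loop of CAGTGN whose last base is not G, and the 5 bases that close the stem. It found 1 match in the 5′ UTR of Fth1 (chr19:9982732-9982760, plus strand), 1 in that of Ftl1 (chr7:45459779-45459807, minus strand) and 1 in that of Slc40a1 (chr1:45925465-45925493, minus strand). The 3′ UTR of Tfrc held 4, at chr16:32631219-32631247, chr16:32631598-32631626, chr16:32631663-32631691 and chr16:32631710-32631738, all on the plus strand. Each is written 5′ to 3′ as DNA of the RNA strand, with the loop in capitals.
Fth1: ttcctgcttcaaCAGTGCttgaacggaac
Ftl1: gtcttgcttcaaCAGTGTttgaacggaac
Slc40a1: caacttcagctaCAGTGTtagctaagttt
Tfrc 1: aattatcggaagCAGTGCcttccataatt
Tfrc 2: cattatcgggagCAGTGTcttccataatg
Tfrc 3: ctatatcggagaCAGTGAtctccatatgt
Tfrc 4: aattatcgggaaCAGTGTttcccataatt
Among all genes, 21 of 20873 with a 5′ UTR (0.101%) and 98 of 20984 with a 3′ UTR (0.467%) held such a match. The other 6 members held none, which says only that this pattern is not in their annotated UTRs.

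The libraries held 20931730 to 39037176 reads assigned to genes, and cardiomyocyte markers were high in all of them (Myh6 402804 to 1196025 normalized counts). Normalized counts are reads divided by 1 size factor per library. Reads fell on Ctla4 and Pdcd1 in every library and were higher in ICI-myocarditis, so neither gene checks the genotype labels. Libraries stood apart in 2 ways that touch the members. Control 4 held 425 normalized counts of Alb, the liver's albumin gene, against 0 to 1.53 in the other 6, and its summed hepatocyte markers came to 981 against 111 to 268. Control 2 held 2003 normalized counts of summed T cell markers against 159 to 267 in the other controls. Several results, though not all, are also given without these libraries.

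Of the 10 members, 9 reached the 10 normalized counts in 3 libraries that a test required, and 5 of these 9 passed at an adjusted p under 0.05 in limma. Slc11a1, Ftl1 and Ltf rose in ICI-myocarditis, Tfrc and Slc40a1 fell, and Fth1, Hp, Lcn2 and Cp did not pass. Over all 15258 genes tested, 15.7% passed, 11.7% as higher and 4.00% as lower. The groups did not overlap for 6 of the 9 members, 4 with ICI-myocarditis above and 2 with it below, and over all genes the shares were 28.6%, 17.3% and 11.3%. Ltf reached the filter only through the group in which it was high, so the filter itself favoured a difference. The median log2 fold change of the 9 was 1.01, against -0.02 over all genes tested. Without control 2, the same 5 members passed. Without control 4, 4 passed: Slc11a1, Ftl1, Ltf and, newly, Lcn2, while Tfrc and Slc40a1 did not.

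**Figure D1:**
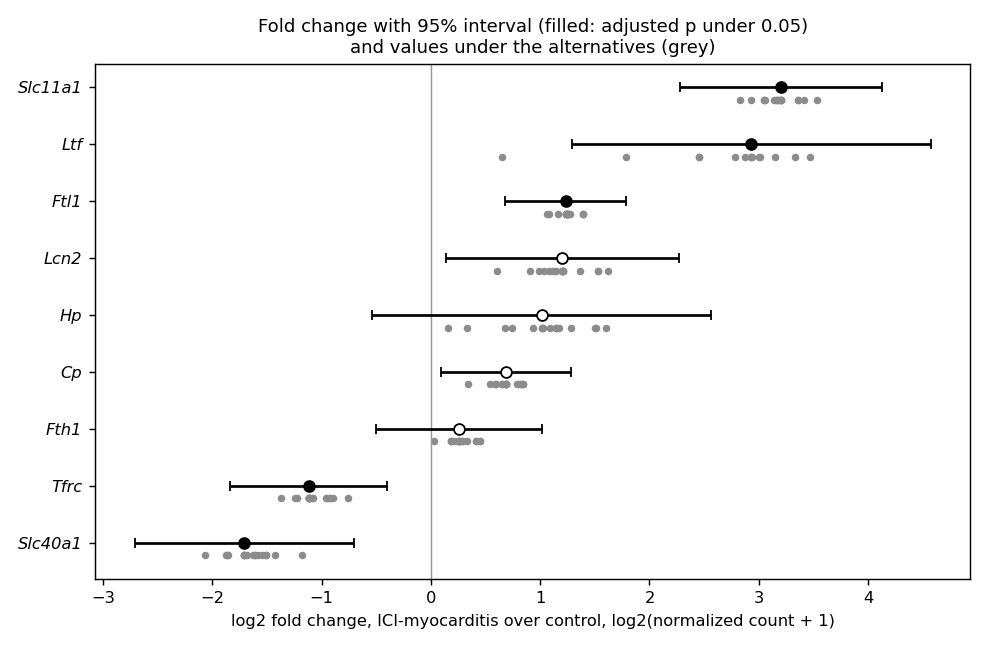
Log2 fold change of each tested member, as the difference of ICI-myocarditis and control means of log2(normalized count + 1) (x axis). Large points with bars are the limma estimates with 95% intervals (filled where the adjusted p was under 0.05), and small grey points are the estimates under the alternative settings and with single libraries left out. Slc11a1 at 3.20 and Slc40a1 at -1.71 are the ends of the range, and no member's grey points cross 0.

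Tfrc and Slc40a1, the members for transferrin iron uptake and for iron export, fell together. Tfrc lies on chromosome 16 from 32608920 to 32632794 on the plus strand and encodes transferrin receptor 1. It stood at 6679, 6424, 9135 and 12409 normalized counts in controls 1 to 4 and at 3691, 5494 and 2810 in ICI-myocarditis 1 to 3. All 3 ICI-myocarditis hearts lay below the lowest control. The mean went from 8662 ± 2781 (SD, n = 4) to 3998 ± 1368 (SD, n = 3), a log2 fold change of -1.12 (SE 0.319, 95% interval -1.84 to -0.40, adjusted p = 0.0440). The call ended without control 1, control 3, control 4, ICI-myocarditis 1 or ICI-myocarditis 3, with log2 fold changes of -0.89 to -1.23 and an adjusted p of 0.0689, 0.117, 0.0757, 0.109 and 0.191. It also ended under limma without trend and robust variance (adjusted p = 0.0559).

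Slc40a1 lies on chromosome 1 from 45908068 to 45926523 on the minus strand and encodes ferroportin. Controls 1 to 4 held 553, 530, 984 and 1137 normalized counts, and ICI-myocarditis 1 to 3 held 384, 291 and 111. The groups did not overlap, and ICI-myocarditis 3 was the lowest library. The mean fell from 801 ± 306 (SD, n = 4) to 262 ± 139 (SD, n = 3), a log2 fold change of -1.71 (SE 0.445, 95% interval -2.71 to -0.70, adjusted p = 0.0314). The call ended without control 1, control 3, control 4, ICI-myocarditis 2 or ICI-myocarditis 3 (adjusted p = 0.0543, 0.0949, 0.0617, 0.0583 and 0.0935), with log2 fold changes of -1.18 to -1.87.

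**Figure D2:**
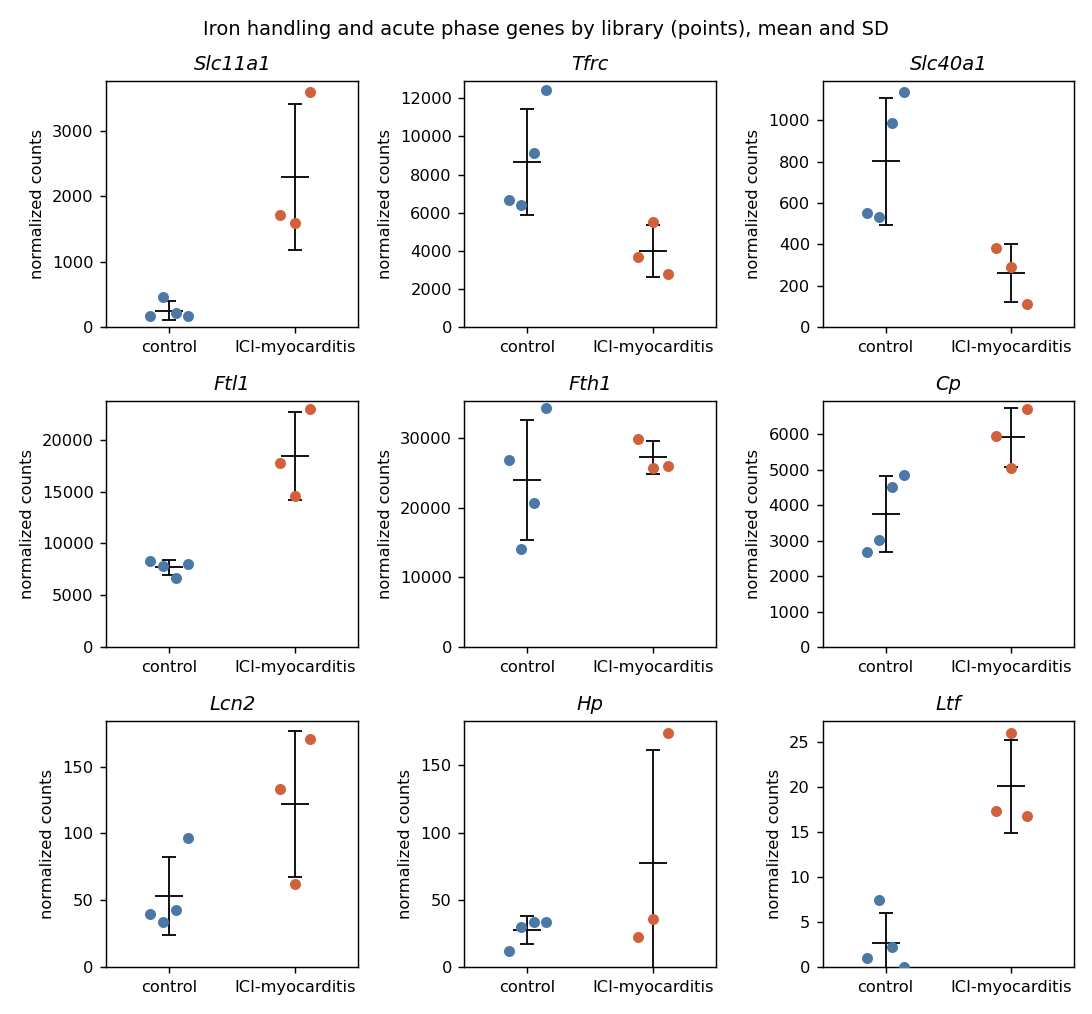
Normalized counts (y axis, linear and from 0) of the 9 tested members in the 4 control and 3 ICI-myocarditis libraries, 1 point per library, with the group mean and SD as bars (cut at 0 for Hp and Ltf). Tfrc and Slc40a1 lie lower and Slc11a1, Ftl1, Cp and Ltf higher in every ICI-myocarditis library than in any control, while Fth1, Hp and Lcn2 overlap.

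Markers of several cell types moved beside these 2 genes, and their part in the result was not tested. Of 12 endothelial markers 5 were lower (Kdr, Erg, Emcn, Tek and Cldn5) and none higher, with sums of 39354 to 99872 in controls and 29545 to 37984 in ICI-myocarditis. Proliferation markers, which matter for Tfrc because dividing cells use it, moved the other way, with 11 of 13 higher. None of 12 cardiomyocyte markers passed in limma (2 had an unadjusted p under 0.05, edgeR called 0 and DESeq2 4), and their median log2 fold change was -0.79. Of red blood cell markers 4 were tested and none passed (0 at an unadjusted p under 0.05, 0 in edgeR and 0 in DESeq2), with sums of 10901 to 42739 and 6953 to 28716. In all libraries 4 globin rows (Hbb-b1, Hbb-b2, Hba-a1, Hba-a2) were at 0, and most of the sum was Beta-s. In bulk tissue, fewer cells of a type and less RNA per cell cannot be told apart.

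Slc11a1 rose. It lies on chromosome 1 from 74375195 to 74386062 on the plus strand and encodes NRAMP1, the divalent metal transporter of phagocyte lysosomes and phagosomes. The 4 controls held 172, 468, 213 and 169 normalized counts, and the 3 ICI-myocarditis hearts held 1714, 1594 and 3590. Control 2, the library with more T cell transcripts, was the highest control and was still far below every ICI-myocarditis heart. The mean went from 256 ± 143 (SD, n = 4) to 2299 ± 1119 (SD, n = 3), a log2 fold change of 3.20 (SE 0.410, 95% interval 2.28 to 4.12, adjusted p = 0.00316). It passed under all 18 alternatives, with log2 fold changes of 2.83 to 3.53.

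Macrophage and monocyte markers moved with Slc11a1, and their part in its rise was not tested. Of the 21 markers, all detected, 14 were higher and 1, Cd163, was lower, and they summed to 19964 to 29808 normalized counts in controls and 92054 to 152026 in ICI-myocarditis. Ratios to these markers were described after the values had been seen, and for Slc11a1 they depended on the marker. Slc11a1 per Csf1r, the receptor that macrophages need to survive, was 0.0554, 0.164, 0.0698 and 0.0604 in controls 1 to 4 and 0.343, 0.242 and 0.287 in ICI-myocarditis 1 to 3. Slc11a1 per Ctss, a lysosomal protease gene, was 0.291, 0.244, 0.254 and 0.232 in controls and 0.111, 0.107 and 0.144 in ICI-myocarditis. The first ratio was higher and the second lower in every ICI-myocarditis heart than in any control. Over all 21 markers as denominator, ICI-myocarditis lay above the controls for 10, below for 2 and overlapped for 9. Slc40a1 lay below the controls for 18 of the 21 and overlapped for 3 (Cd163, Lyve1 and Marco). Since Slc40a1 itself was lower without overlap and 14 of these markers were higher, this count was largely fixed in advance. It does not measure Slc40a1 per macrophage.

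**Figure D3:**
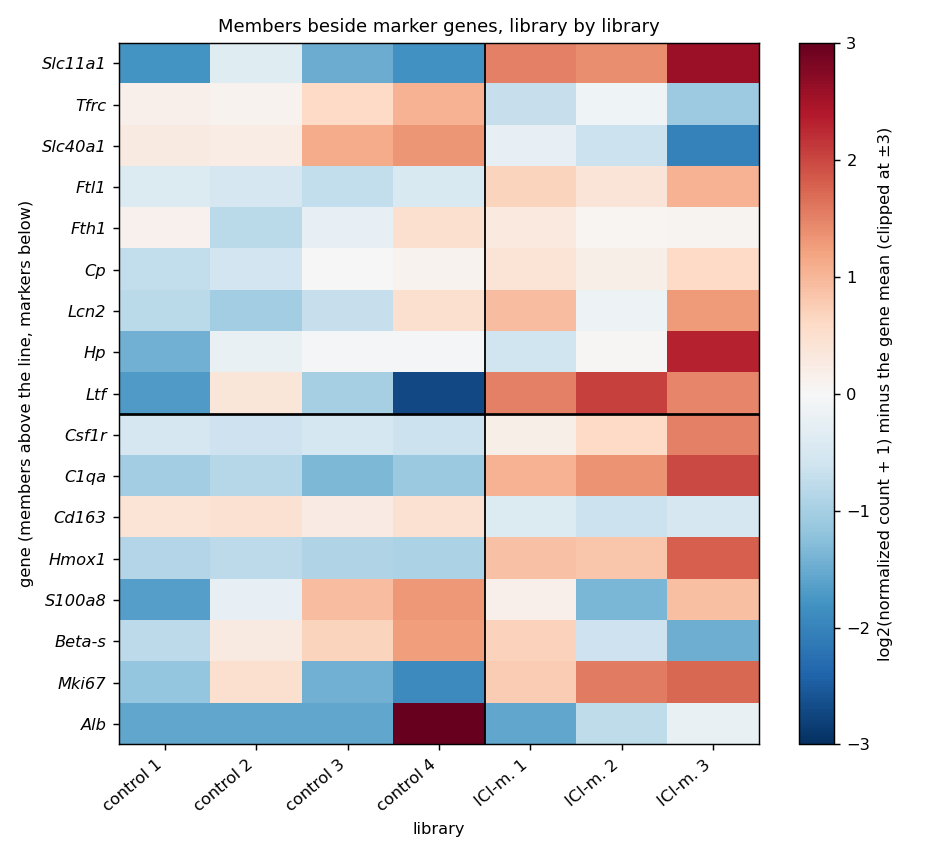
Log2(normalized count + 1) minus each gene's mean over the 7 libraries (colour, clipped at 3 either way), with libraries in columns and, in rows, the 9 tested members above the line and marker genes below it. Slc11a1 shares its high values in ICI-myocarditis with Csf1r, C1qa and Hmox1, Cd163 is lower there, and Alb is high in control 4.

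Among the ferritin subunits, the light chain rose and the heavy chain did not pass the test. Ftl1, on chromosome 7 from 45457944 to 45459884 on the minus strand, encodes the light subunit, which helps form the iron core. It stood at 8338, 7786, 6682 and 8052 normalized counts in the controls and at 17731, 14533 and 22939 in ICI-myocarditis. Controls lay close together and every ICI-myocarditis heart lay above them. The mean rose from 7715 ± 724 (SD, n = 4) to 18401 ± 4243 (SD, n = 3), a log2 fold change of 1.23 (SE 0.246, 95% interval 0.68 to 1.79, adjusted p = 0.0106), and the call ended without ICI-myocarditis 3 (1.06, adjusted p = 0.0509).

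Fth1, on chromosome 19 from 9980598 to 9985098 on the plus strand, encodes the heavy subunit, which oxidises iron for storage. It stood at 26765, 14065, 20645 and 34284 normalized counts in controls and at 29870, 25668 and 26007 in ICI-myocarditis. The ICI-myocarditis values fell inside the range of the controls, which were lowest in control 2 and highest in control 4. Its log2 fold change was 0.26 (SE 0.337, 95% interval -0.50 to 1.01, adjusted p = 0.666), 0.02 without control 2 and 0.45 without control 4. Both ferritin genes have processed pseudogenes, so reads may have been shared with copies.

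The balance of these genes within a library was described after their values had been seen, with no test. Ftl1 per Fth1 was 0.312, 0.554, 0.324 and 0.235 in controls 1 to 4 and 0.594, 0.566 and 0.882 in ICI-myocarditis 1 to 3. The groups did not overlap, though control 2 came close to ICI-myocarditis 2. Tfrc per Fth1 was 0.250, 0.457, 0.442 and 0.362 in controls and 0.124, 0.214 and 0.108 in ICI-myocarditis, with the lowest control above the highest ICI-myocarditis heart. These are ratios of normalized counts, not of messages per length.

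**Figure D4:**
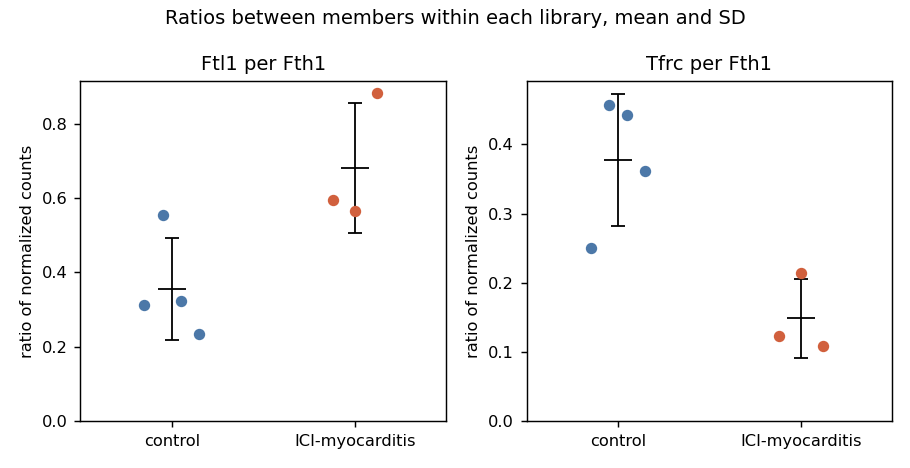
Ratio of normalized counts of Ftl1 to Fth1 (left) and of Tfrc to Fth1 (right) within each library (y axis, from 0), 1 point per library, with group mean and SD as bars. Ftl1 per Fth1 averages 0.356 in controls and 0.681 in ICI-myocarditis, and Tfrc per Fth1 averages 0.378 and 0.149.

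Hamp, the hepcidin gene on chromosome 7 from 30942368 to 30944032 on the minus strand, was near the detection limit. It had 1, 1, 0 and 0 reads in controls 1 to 4 and 0, 2 and 3 reads in ICI-myocarditis 1 to 3, so it was not tested. Neither group stood above the other at this depth. A count of 0 allows up to 3 reads, counting error only. Its near-identical neighbour Hamp2, with which reads may be shared, held at most 2.50 normalized counts in any library.

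Of the secreted binding proteins, 1 of 4 passed the test, and all 4 had higher means in ICI-myocarditis. Cp encodes ceruloplasmin, the copper oxidase that loads exported iron onto transferrin, and lies on chromosome 3 from 19957054 to 20009145 on the plus strand. It stood at 2688, 3010, 4502 and 4839 normalized counts in controls and at 5957, 5053 and 6709 in ICI-myocarditis. The groups did not overlap, but control 4 lay close to ICI-myocarditis 2. The log2 fold change was 0.69 (SE 0.264, 95% interval 0.09 to 1.28, adjusted p = 0.115), and no alternative brought it under 0.05. Without control 4 it was 0.82 (adjusted p = 0.0717).

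Lcn2 encodes lipocalin 2, which binds bacterial siderophores, and lies on chromosome 2 from 32384633 to 32388252 on the minus strand. Controls held 39.3, 33.3, 42.4 and 96.3 normalized counts and ICI-myocarditis hearts 133, 62.3 and 170. The groups overlapped through control 4, the library with liver transcripts, which exceeded ICI-myocarditis 2. Whether the liver transcripts had a part in this was not tested. The log2 fold change was 1.20 (SE 0.473, 95% interval 0.14 to 2.27, adjusted p = 0.122), and without control 4 it was 1.53 and passed (adjusted p = 0.0410). Without ICI-myocarditis 1, 2 or 3 it was 1.08, 1.62 and 0.91 and did not pass (adjusted p = 0.262, 0.0757 and 0.410).

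Hp encodes haptoglobin, which captures free hemoglobin, and lies on chromosome 8 from 109575128 to 109579172 on the minus strand. Controls held 12.1, 29.6, 33.5 and 33.8 normalized counts and ICI-myocarditis hearts 22.5, 35.5 and 174. ICI-myocarditis 3 alone lay well above the rest. The log2 fold change was 1.01 (SE 0.687, 95% interval -0.53 to 2.56, adjusted p = 0.365). Without ICI-myocarditis 3 it was 0.15, and without control 4 it was 1.15, neither passing.

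Ltf encodes lactoferrin, an iron-binding protein of neutrophil granules and gland secretions, and lies on chromosome 9 from 111019271 to 111042767 on the plus strand. It had 1, 6, 2 and 0 reads in controls 1 to 4 and 17, 36 and 22 in ICI-myocarditis 1 to 3. The groups did not overlap, and control 2 was the highest control. As normalized counts these were 1.01, 7.40, 2.23 and 0 against 17.4, 26.1 and 16.8, with a log2 fold change of 2.93 (SE 0.729, adjusted p = 0.0263). The size rests on the pseudocount at such low values, being 3.33 with 0.5, 1.78 with 5 and 0.65 on CPM in place of size factors. The call ended without control 1 (adjusted p = 0.0719) or control 3 (adjusted p = 0.0628). Ltf could not be tested without any 1 of the ICI-myocarditis libraries, nor with a minimum of 50 normalized counts.

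Markers of the cells known for these proteins were read beside them, and their part in the results was not tested. Of the 16 neutrophil markers found, 5 were tested and only Csf3r was higher. The list summed to 854 to 1848 normalized counts in controls and 1368 to 1728 in ICI-myocarditis. Lrg1 made up most of it except in ICI-myocarditis 3, where Lrg1 stood at 470, Csf3r at 820 and Chi3l3 at 338. The sum therefore mostly follows Lrg1, at 591 to 1694 in controls and 470 to 964 in ICI-myocarditis. Csf3r went from 28.8 to 179 in controls to 282 to 820. Chi3l3 went from 0 to 34.5 in controls to 46.4 to 338 and did not pass. S100a9 overlapped, at 5.04 to 56.3 and 10.9 to 17.6. S100a8 ranged from 4.03 to 37.5 and from 5.07 to 28.3, and Fcnb was at 0 in all libraries. The granule genes of the list, Elane, Mpo, Prtn3, Ctsg, Camp, Ngp and Mmp8, grouped after their values were seen, reached at most 8.76, apart from Mmp8 at 13.8 in ICI-myocarditis 3. Of hepatocyte markers 4 of 15 were tested and 1, Cyp2e1, was lower, having met the filter only through the controls, and Alb was at 0 in controls 1 to 3. Of 10 markers of airway and gland epithelium 4 were tested and 2, Epcam and Cdh1, which met the filter only through ICI-myocarditis, were higher, with sums of 27.9 to 57.5 in controls and 127 to 261 in ICI-myocarditis, and Scgb3a2 was at 0 in all libraries. Of 11 mesothelial markers 1, Krt18, was higher. These marker names, and those of the endothelial genes, are given after their values were seen.

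Levels of different genes were compared as mean normalized counts per kilobase of each gene's principal transcript. In controls the order was Fth1 (16024), Ftl1 (7970), Tfrc (1771), Cp (933), Slc40a1 (238), Slc11a1 (110), Lcn2 (57.8), Hp (20.3), Hamp (1.37) and Ltf (0.970). The library ranges of neighbours were apart from Fth1 to Cp to Slc40a1 and from Lcn2 to Hp to Hamp, and overlapped for Slc40a1 with Slc11a1, for Slc11a1 with Lcn2 and for Hamp with Ltf. In ICI-myocarditis Ftl1 (19009) and Fth1 (18194) led, followed by Cp (1466), Slc11a1 (993), Tfrc (818), Lcn2 (133), Slc40a1 (77.7), Hp (57.6), Ltf (7.33) and Hamp (3.04). There the ranges of Ftl1 and Fth1 overlapped, and so did each neighbouring pair from Cp to Tfrc and from Lcn2 to Hp. Slc11a1 thus stood below Slc40a1 in the control means and above it in the ICI-myocarditis means. The place of Fth1 depends on the transcript whose length is used.

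Genes whose profile over the 7 libraries lay closest to a member's were picked by the root mean square difference of centred log2(normalized count + 1) values, for which 0 is an identical shape. The nearest to Slc11a1 were Selplg (0.134) and Lilrb3 (0.173), both of which rose. Nearest to Slc40a1 were Ech1 (0.106) and Acaa2 (0.171), enzymes of fatty acid oxidation, and nearest to Tfrc were Maob (0.0934) and Polq (0.142). All 4 had negative log2 fold changes, and Maob did not pass. Ftl1 had Slc39a6 (0.109) and Tnfaip6 (0.118), Fth1 had Gabarap (0.0600) and Fkbpl (0.0734), and Cp had Spcs3 (0.107) and Mr1 (0.117). The nearest profiles were farther off for Ltf (H2-Q5 0.214, Mybl2 0.289), Lcn2 (Ahsg 0.321) and Hp (Steap2 0.401, Rasl11b 0.514). These differences are not scaled to a gene's own spread, so members are not ranked by them. The SD of the log2 values over the libraries was 1.82 for Ltf, 0.909 for Lcn2 and 1.14 for Hp. It was 0.731 for Tfrc, 0.418 for Fth1 and 0.487 for Cp. The points share libraries and size factors, so these are descriptions.

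In the wider iron network 4 lists held 1 to 3 called genes each, to be read against the 15.7% called over all genes tested. Without ICI-myocarditis 3 the lists for uptake, for sensing and for mitochondrial iron held 0, and the count over all genes fell from 2397 to 986. Of 14 tested genes of iron uptake and intracellular transport, 1 rose and 1 fell, with a median log2 fold change of -0.23. Heph, encoding hephaestin, a copper oxidase like ceruloplasmin, went from 233, 350, 333 and 170 normalized counts to 121, 101 and 132 (log2 fold change -1.14, adjusted p = 0.0314), with every ICI-myocarditis heart below the controls. Its call ended with CPM (adjusted p = 0.134) or mean-total scaling (0.136), and without control 1, control 3 or any 1 of the ICI-myocarditis libraries (0.0654 to 0.111). Hephl1, its paralog, held 1.01, 0, 1.12 and 0 in controls and 15.3, 16.7 and 112 in ICI-myocarditis (adjusted p = 0.00690), and it too reached the filter only through the group where it was high. Its call ended with CPM (adjusted p = 0.0681), and it could not be tested without any 1 of the ICI-myocarditis libraries. Trf, encoding transferrin, had a log2 fold change of 0.49 (adjusted p = 0.293), and Slc11a2, encoding the iron importer DMT1, 0.05 (adjusted p = 0.875).

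Of 21 tested genes of iron sensing and hepcidin control, 1 rose and 1 fell, with a median of -0.10. Gdf15, a stress cytokine, went from 79.7, 29.6, 27.9 and 18.8 normalized counts to 109, 168 and 126 (log2 fold change 1.95, adjusted p = 0.0242), without overlap. Its call ended without control 3 or any 1 of the ICI-myocarditis libraries (adjusted p = 0.0528 to 0.0928) and with the replicate block (0.0510). Id1, a target of BMP signalling, fell (-1.04, adjusted p = 0.0424), a call that ended with either other scaling (0.111 and 0.113) and without any single library except control 4 (0.0507 to 0.162). The Id1 call also ended under limma without trend and robust variance (0.0649). Aco1 and Ireb2, which encode the 2 iron regulatory proteins that bind the hairpins shown above, had log2 fold changes of -0.22 (adjusted p = 0.462) and -0.19 (adjusted p = 0.538). Bmp6, which signals iron stores to the liver, had -0.22 (adjusted p = 0.628).

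Heme genes moved in both directions, with 1 of 19 tested higher, 2 lower and a median of -0.19. Hmox1, encoding the enzyme that frees iron from heme, went from 265, 282, 262 and 254 normalized counts to 911, 879 and 1718 (log2 fold change 2.06, SE 0.254, adjusted p = 0.00303) and passed under all 18 alternatives. Cd163, the macrophage receptor for haptoglobin bound to hemoglobin, went from 1273, 1296, 1127 and 1310 to 715, 606 and 666 (-0.92, SE 0.167, adjusted p = 0.00795). The groups did not overlap for either gene, and only the replicate block ended the Cd163 call. Mfsd7c, the former symbol of the transporter Flvcr2, fell (-1.55, adjusted p = 0.0234), and Hpx, encoding the heme scavenger hemopexin, was not tested and stood at 31.3 in control 4 and at most 7.64 elsewhere. Of 15 tested mitochondrial iron genes 1 fell, Nfs1 (-0.99, adjusted p = 0.0333), which supplies sulfur for iron-sulfur clusters. The Mfsd7c call ended without control 1, control 3, ICI-myocarditis 2 or ICI-myocarditis 3 (adjusted p = 0.0541 to 0.0889), and the Nfs1 call without any single library except control 2 (0.0533 to 0.147). Both calls also ended with the replicate block (0.0649 for Mfsd7c and 0.128 for Nfs1). Under limma without trend and robust variance the Nfs1 call ended too (0.0522). The median of the mitochondrial iron genes was -0.55, and Ftmt, mitochondrial ferritin, was at 0 in all libraries.

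Other acute phase genes that could be tested were mostly higher. The list held 29 genes, and those not among the 16 tested stayed below the filter. Of the 16, 9 were higher, 1 was lower and 6 did not pass, with a median of 2.39. Over all genes tested, 11.7% were higher and 4.00% lower. In edgeR 7 of the list were called and in DESeq2 12. Called genes of this list numbered 10 in all, 11 without control 2, 10 without control 4 and 6 without ICI-myocarditis 3. Serpina3n, a protease inhibitor, went from 131, 229, 147 and 146 normalized counts to 1170, 1481 and 4840 (log2 fold change 3.66, adjusted p = 0.00303), and complement C3 went from 4389 to 9160 in controls to 22859 to 65259 (2.50, adjusted p = 0.00599). Both were highest in ICI-myocarditis 3, the library in which Hp was high. Slc11a1, Ftl1, Hmox1 and Csf1r were also highest there, so this peak is not particular to acute phase genes. Saa3, a serum amyloid A of extrahepatic tissue, stood at 1.01, 27.1, 3.35 and 1.25 in controls and at 42.0 to 147 in ICI-myocarditis (3.79, adjusted p = 0.0244). Orm2, Serpina3g, Ptx3, Serping1, Cfb and C4b also rose (1.96 to 5.63), and Pzp fell (-2.08, adjusted p = 0.0438), being highest in control 4. Serpina3g, at the top of that range, held 1441 normalized counts in control 2 and 36.3, 77.0 and 53.8 in controls 1, 3 and 4. In edgeR the calls of Saa3, Orm2 and Serpina3g ended (adjusted p = 0.0585, 0.0577 and 0.0648). Pzp met the filter only through the controls, the group where it was high. Its call ended with CPM (adjusted p = 0.0743), with mean-total scaling (0.0527) and with the replicate block (0.0616). Calls ended without 1 library for Ptx3 (ICI-myocarditis 2 or 3, adjusted p = 0.0623 and 0.0762), for Saa3 and Orm2 (control 1, control 3 or any ICI-myocarditis library, 0.0520 to 0.123) and for Pzp (any library except control 2, 0.0505 to 0.183). Saa1 and Apcs were at 0 in all libraries, and reads of the Saa, Orm and Serpina3 families may be shared between copies.

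Of 16 tested inducers of the acute phase, 6 rose and none fell, with a median of 0.89. Over all genes tested, 11.7% were higher and 4.00% lower. Of the list, 8 passed without control 2, 6 without control 4 and 2 without ICI-myocarditis 3. Leaving out ICI-myocarditis 3 also lowered the count over all genes, from 2397 to 986. The 6 that rose included the cytokines Tnf (log2 fold change 3.94), Osm (2.77, with 10 normalized counts reached only in ICI-myocarditis) and Lif (1.79). The others were the interleukin 6 receptor Il6ra (1.49) and the feedback and co-regulator genes Socs3 (3.16) and Nfkbiz (1.70). Adjusted p-values of the 6 in limma were 0.00411 to 0.0319. Calls ended without 1 library for Tnf (ICI-myocarditis 3, adjusted p = 0.0706), Osm (control 3, 0.0529, with no test possible without any 1 of the ICI-myocarditis libraries), Lif (control 1 or any ICI-myocarditis library, 0.0573 to 0.138) and Nfkbiz (control 1, control 3 or any ICI-myocarditis library, 0.0586 to 0.112). The Nfkbiz call also ended in edgeR (adjusted p = 0.0623) and with mean-total scaling (0.0509), and the Lif call with the replicate block (0.0603). Il6 stayed below the filter, at 0 to 3.35 normalized counts in controls and 6.14 to 19.9 in ICI-myocarditis. Il1b (2.50, adjusted p = 0.124), Stat3 (0.65, adjusted p = 0.0810) and Cebpd (0.92, adjusted p = 0.203) did not pass, and Il22 was at 0. Il1b passed without control 2 (3.35, adjusted p = 0.0102) and with library weights (0.00303), Cebpd with library weights (0.0101), and Stat3 in DESeq2, with CPM (0.0384), with mean-total scaling (0.0397) and with library weights (0.00366). Of 4 partners and receptors of lipocalin 2 none passed in limma (1 at an unadjusted p under 0.05, 0 in edgeR and 0 in DESeq2). Slc22a17, a lipocalin 2 receptor, had a log2 fold change of 0.11 whose sign depended on the setting.

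**Figure D5:**
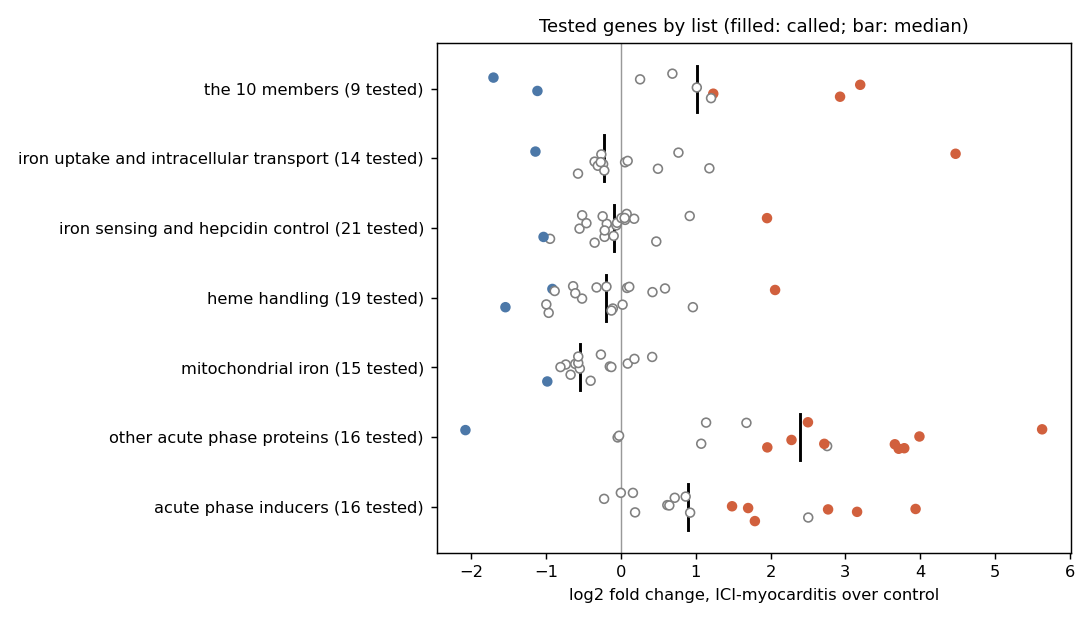
Log2 fold change of ICI-myocarditis over control (x axis) for each tested gene, 1 point per gene, for the members and 6 pathway lists in rows. Filled points passed (red higher, blue lower), open points did not, and black bars mark the list medians, which run from -0.55 for mitochondrial iron to 2.39 for other acute phase proteins.

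Promoters were searched for 5 motifs on both strands in the RefSeq windows of GRCm38, 300 bases around each start, of which 11 belonged to 8 members and Hp and Slc40a1 had none. A STAT motif, TTCNNNGAA, was found in the Hamp window, 97 bases before the start, and in 8.30% of all 32851 windows. A kappaB motif was found in Cp and Fth1 and in 20.7% of all. The interferon regulatory factor motif (3.44% of all), the antioxidant response element TGACNNNGC (12.4%) and the PU.1 motif GAGGAAGT (3.20%) matched no member window, which says only that these letters are not in these windows.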

How the data were processed

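RNA was made into libraries with a kit that marks strand and read from both ends, per the labels' protocols. The submitters' processing notes name STAR 2.7.3 and GRCm38 (mm10). Which program and annotation were used for counting, and whether strand was used, is not given in the sources used here, so reads of a gene and of an overlapping antisense gene may not be separated. The 1 table used holds, per library, a signal deposited by the authors, which its values show to be read counts divided by a size factor. Dividing by the smallest step gave whole numbers within 0.01 for 100% of values in every library, less certainly in control 1, whose step was 1.01. The deposited table also has a log2 fold change, its error, a score (the test statistic), p-values and adjusted p-values of the authors. In the authors' deposited table the adjusted p was 0.0628 for Lcn2, 0.0903 for Cp and 0.109 for Hp. Spreadsheet software had turned 27 gene names into dates, and 2 names occurred more than once.

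A gene was tested where 3 or more libraries held 10 or more normalized counts, using limma 3.58.1 (R 4.3.3; trend and robust variance, group only) on log2(normalized count + 1), with Benjamini-Hochberg adjustment over all 15258 genes and a threshold of 0.05. Fold changes on that scale understate the change of low genes. Each sample was taken as a separate animal, as the design states. No pair of libraries agreed within counting noise. Alternatives were edgeR 4.0.16 and DESeq2 1.42.0 on recovered reads (2076 and 3441 genes called, against 2397), other scalings, pseudocounts and filters, other variance models, a replicate block and leaving out each library. Scaling to the mean library total was added after seeing the data. Tests were checked on simulated counts, where DESeq2 exceeded its nominal error rate. Gene lists for pathways and cell types were written by hand. The members and the lists were chosen with earlier results of these data known. Named genes are all members, the called genes and a fixed few of each pathway list, the 2 highest and any all-zero genes of each cell type list, and the 2 nearest profiles of each member, of which 1 is not reported here. Others are marked or serve as markers. Without molecular identifiers, reads can be copies of 1 molecule, so limits at a count of 0 cover counting error only.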

Additional observations from a re-analysis of the deposited data

Results flagged for a closer look

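In controls, Hp had 1 library apart from the other 3: control 1, with 12.1 normalized counts, lay below the rest, which held 29.6 to 33.8. Its gap to the nearest control was 0.869 of the range of the 4 controls on the log2 scale. Of the 9 tested members, 1 was picked out in this way, and chance picks out about 1 group in 20. Without control 1 the log2 fold change of Hp was 0.68 (adjusted p = 0.593 in limma).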

How the results depend on the processing

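Of the members' fold changes under all alternatives, 138 kept their direction and their side of the threshold, 17 lost the call, 2 gained it and 0 changed sign. The count of called members, 5, was 3 with the replicate number as a block and 1 to 5 with single libraries left out (2 without control 1 or control 3, 3 without ICI-myocarditis 1 or 2, and 1, Slc11a1, without ICI-myocarditis 3). The replicate numbers did not pair the samples, since same-numbered libraries correlated at -0.27, -0.21 and -0.08 in their deviations from the group means. Under the block Tfrc, Slc40a1 and Ftl1 lost the call (adjusted p = 0.178, 0.0679 and 0.0690) and Lcn2 gained it (0.0395). Over all genes the count of 2397 went to 5959 with library weights, whose estimation had not converged, and to 986 to 3340 with single libraries left out. Of the calls 74.6% were higher, against 84.6% when reads were scaled to CPM, 84.3% when scaled to the mean total and 62.8% in DESeq2. The former 2 scalings raised the median log2 fold change of all genes by 0.13 and 0.16. The count of genes called lower, 610, was 1281 in DESeq2, 335 with CPM, 311 at the mean total, 389 with the block, 2533 with weights (3426 higher, against 1787), and 157 to 1088 with single libraries left out. Sign changes concerned genes near 0: Slc11a2 went to -0.0054 without ICI-myocarditis 3, and Slc22a17 to -0.0463 in edgeR, -0.0236 in DESeq2, -0.20 with the replicate block and -0.20 to 0.39 with single libraries left out, the lowest without control 4. The cause was not tested. Depth limits Hamp, Ltf and Hephl1, which had few reads.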
